A study of Mus musculus with 8 samples.

Results

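Notch signalling passes between neighbouring cells: a ligand on one cell binds a Notch receptor on the next, the receptor is cut, and its inner part moves to the nucleus, where it joins the DNA-binding protein RBPJ and switches on target genes such as those of the Hes and Hey families. Notch2 encodes one of the receptors. Lfng encodes lunatic fringe, a Golgi enzyme that adds a sugar to Notch receptors and so changes which ligands they respond to. Methylation of cytosine in CpG pairs is usually low over CpG-rich gene starts and high elsewhere in the genome.

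CpG methylation was examined at the loci of these 2 genes in the 4T1 model, a BALB/c mammary carcinoma line that forms lung metastases. The samples were 2 primary mammary tumors labelled MFP, 3 lung metastases labelled MFP and 3 lung metastases labelled TVI. All 8 came from 4T1 cells and the BALB/c strain. The labels do not spell out MFP or TVI and give no age, treatment or time. Nor do they tie samples to animals; p-values here rest on the variation among these libraries, part or all of which may be technical.

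The members were all sites (listed CpG positions) of chromosome 5 from 141075000 to 141095000 for Lfng, and of chromosome 3 from 97815000 to 97956000 for Notch2, in the deposited coordinates. They numbered 270 and 396, together 666 of the 136069 sites in the table (0.489%). The windows were chosen because of differences between TVI metastases and the other samples, and for Notch2 also between metastases and tumors, so those differences are given below as a description: no p-value of theirs is printed, and where calls of the fit across the whole table are counted, nothing is read from the count. Each value was the methylation level, the percent of calls at a site that were methylated. The deposited values are fractions without read counts, and their sequencing depth is therefore not known.

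The deposited positions as a whole did not match GRCm38 (mm10), the build named in the submitters' processing notes. On chromosome 7, 557 of 3166 sites lay beyond the last gene end of the GRCm38.p6 gene table, 145324059, and the highest was at 152129719. Positions below are therefore as deposited, with no build assigned. Gene starts were placed by shifting the CpG pattern of RefSeq promoters along the deposited sites until they coincided. Of 157 promoters placed with at least 7 CpGs matched, 20 lay within 1 bp of their GRCm38 position. The promoter of Pdgfa, the nearest placed gene before Lfng at 1612.859 kb, coincided at 24 of 24 CpGs, and its shift puts Lfng on the plus strand from 141083296 to 141091500. The placed gene after Lfng, Fbxl18, had another shift (20 of 21 CpGs), which would put Lfng outside the window. Distances from Lfng's start thus rest on the Pdgfa shift. At that shift 2 of Lfng's own 22 promoter CpGs coincided with listed sites, and the other 20 fall in a 523 bp gap with no listed site. Elsewhere on the chromosome up to 7 of the 22 coincided at a single shift, so the 2 matches add little.

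For Notch2 the neighbours Gm15998 (21 of 21 CpGs) and Ampd2 (9 of 11) put the start at 97817461 and 97816457. Both put the gene inside the window, on the plus strand. The first listed site was 26.154 kb after the first of these starts and the last was 134.851 kb after it, so Notch2's promoter was not covered. No exon or intron could be assigned at either locus.

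The bases before Lfng's start are shown because the largest differences of the locus lie at and just before their left end. The sequence is the RefSeq promoter of GRCm38.p6, chr5:140607091-140607340, plus strand, 250 bases ending at the base before the start. Capitals mark the 2 of its 18 CpGs that fall on listed sites, 141083047 and 141083051.
Lfng promoter: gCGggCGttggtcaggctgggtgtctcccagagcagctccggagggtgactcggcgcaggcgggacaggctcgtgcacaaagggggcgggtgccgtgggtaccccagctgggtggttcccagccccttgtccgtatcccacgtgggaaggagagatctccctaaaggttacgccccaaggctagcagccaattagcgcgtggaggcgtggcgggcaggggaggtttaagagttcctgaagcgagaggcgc
The letters GTGGGAA, a core form of the RBPJ motif, occurred once in it on the plus strand, from 109 to 103 bases before the start. Both strands were searched over the 250 bases before each start, and 5.42% of 32851 RefSeq promoters held this motif there. The E-box letters CACGTG, which several basic helix-loop-helix factors bind, occurred once from 112 to 107 bases before the start and overlapped the first motif; 6.02% of promoters held it. Neither was found in the 250 bases before the Notch2 start. A match of letters is not a binding site, and no listed site lies inside either motif.

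Lfng was the locus with the larger difference. Over its 270 sites, mean methylation was 46.0% and 45.6% in the 2 primary tumors. It was 46.2%, 46.2% and 46.5% in the MFP metastases and 50.9%, 51.2% and 51.4% in the TVI metastases. The TVI metastases lay above the other 5 samples, by 4.86 points over the MFP metastases (51.2% ± 0.236 against 46.3% ± 0.139; SD, n = 3 each) and by 5.38 points over the tumors (45.8% ± 0.282; SD, n = 2). Over all sites of the table the same means were 66.9% and 66.6% in the tumors, 67.4% to 67.5% in the MFP metastases and 68.5% to 68.7% in the TVI metastases.

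**Figure D1:**
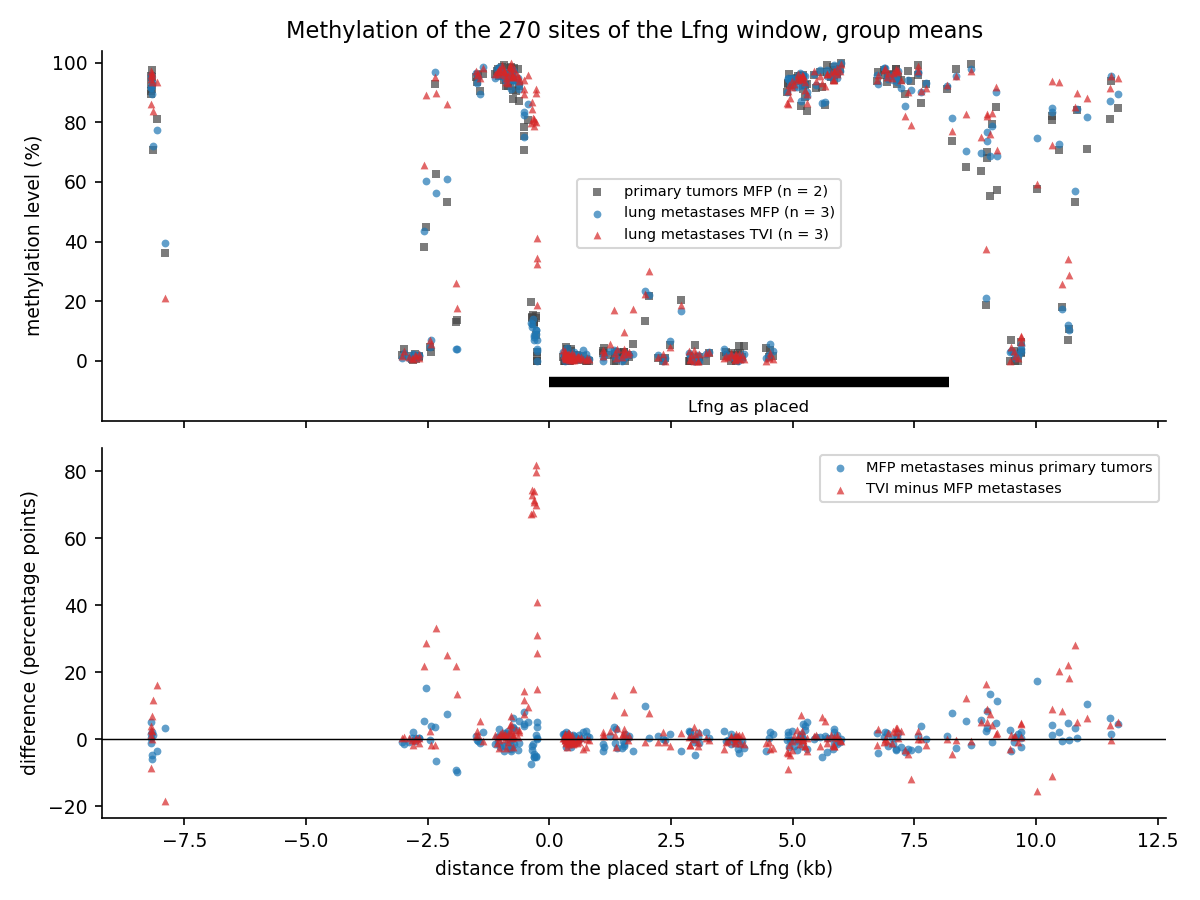
Group mean methylation of the 270 sites of the Lfng window (upper panel, percent) and differences between groups (lower panel, percentage points) against distance from the placed start of Lfng in kb. Each point is 1 site and the black bar is the gene as placed. The TVI points leave the others in a narrow band just before the start, where the difference reaches 81.9 points, while the long unmethylated stretch inside the gene stays near 0% in each group.

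Most of that difference sat in 14 neighbouring sites spanning 140 bp, from 141082912 to 141083051, or -384 to -245 bp from the placed start. They averaged 9.36% and 11.5% in the tumors and 6.97%, 10.7% and 7.63% in the MFP metastases. In the TVI metastases they averaged 64.5%, 68.5% and 73.0%. Every TVI sample lay above every other sample at all 14 sites, and the mean difference from the MFP metastases was 60.3 points (68.7% ± 4.28 against 8.43% ± 1.98; SD, n = 3 each). At single sites it ran from 15.0 to 81.9 points. The sites were grouped by a rule set after the values were seen: at least 3 neighbouring sites, each differing by 10 points or more between TVI and MFP metastases with the same sign. Bulk DNA does not tell a change in the cells that make up a sample from a change of methylation within cells, and of 27 cell type marker genes, 15 were in the promoter table and none of these was placed on the deposited positions with at least 80% of its promoter CpGs matched, so the part of sample makeup in this difference was not tested.

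The 14 sites fell into 2 steps. The first 10, to 141083025, averaged 14.1% ± 2.45 in the tumors, 10.4% ± 1.69 in the MFP metastases and 83.4% ± 4.16 in the TVI metastases. The last 4, from 141083034, averaged 1.16% ± 0.925, 3.53% ± 2.72 and 31.8% ± 6.90. Along the run, the level in the TVI metastases was lower towards the gene start, going from between 78.8% and 91.1% at the 10 sites to between 18.8% and 41.1% at the 4. The 2 capital CpGs of the printed promoter belong to the second step; 141083047 averaged 2.87% in the tumors, 3.41% in the MFP metastases and 34.6% in the TVI metastases.

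The sites on either side show where the methylated upstream part ended. The site 44 bp before the run, 141082868, was methylated in all groups, at 80.9% in the tumors, 86.1% in the MFP metastases and 95.8% in the TVI metastases. The next listed site after the run, 141083574 beyond the 523 bp gap, was at 1.32%, 3.09% and 3.56%. In the tumors and MFP metastases the level dropped between 141082868 and 141082912. In the TVI metastases it dropped only at the last 4 sites before the gap.

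**Figure D2:**
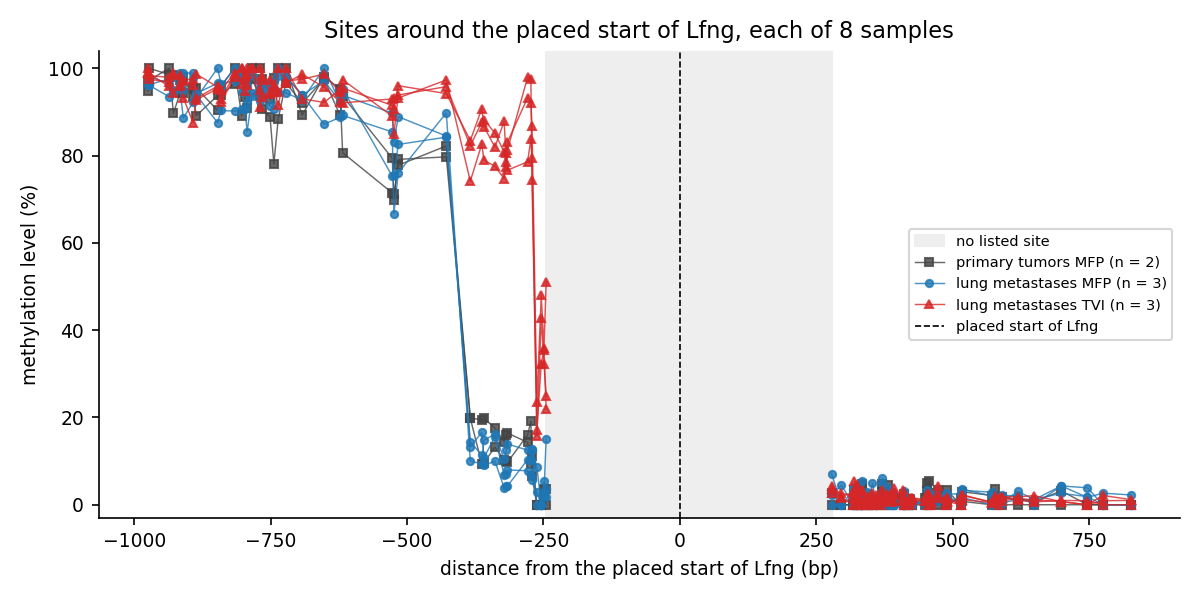
Methylation level in percent of each of the 8 samples at the listed sites around the placed start of Lfng, against distance from it in bp; each line is 1 sample and the grey band is the gap with no listed site. From -384 to -271 bp the group mean of the 3 TVI metastases is at least 78.8%, while the 2 tumors and 3 MFP metastases have group means below 20%.

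The 5 sites with the largest TVI minus MFP differences in the window all lay in this run. They were 141083023, 141083017, 141082933, 141082974 and 141082937, with differences of 81.9, 79.7, 74.5, 74.0 and 73.1 points. At 141083023 the tumors stood at 19.1% and 9.43% and the MFP metastases at 10.3%, 10.3% and 6.85%. The TVI metastases stood there at 83.8%, 97.4% and 92.1%, with no overlap. Without the 14 sites, the window difference between TVI and MFP metastases was 1.83 points (50.2% ± 0.0468 against 48.4% ± 0.202; SD, n = 3 each), so the run carried 64.3% of the summed difference over the window.

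Inside the gene as placed, the groups were close. The 155 sites from the start to the end averaged 36.5% in the tumors, 36.6% in the MFP metastases and 36.9% in the TVI metastases. Its first stretch, 59 sites from 141083574 to 141085022, was almost unmethylated in every sample, at 1.41% ± 0.106 (SD, n = 2), 1.52% ± 0.0474 and 2.38% ± 0.251 (SD, n = 3 each). A further 31 sites from 141086159 to 141087893 averaged 1.67%, 1.61% and 1.49%. Downstream of these, 37 sites from 141088179 were methylated throughout, at 93.8% to 94.4% in the 8 samples.

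Before the start, 68 sites outside the run averaged 72.1% ± 0.284 in the tumors, 72.7% ± 0.419 in the MFP metastases and 76.5% ± 0.175 in the TVI metastases. Among them were 9 sites unmethylated in each group, from 141080266 to 141080614 (1.60%, 1.63% and 1.62%). Just after these, 4 sites from 141080970 to 141081393 averaged 36.3% and 35.1% in the tumors, 31.8%, 31.4% and 30.8% in the MFP metastases and 55.1%, 57.7% and 51.7% in the TVI metastases. There the MFP metastases lay below both tumors and the TVI metastases above them. After the gene end, 3 sites from 141093952 to 141094102 averaged 23.7% ± 0.480, 26.4% ± 3.26 and 49.4% ± 7.31.

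Of Lfng's 270 sites, 32 (11.9%) were at least 10 points higher and 4 (1.48%) at least 10 points lower in TVI than in MFP metastases, against 9.77% and 6.13% of all sites. The 32 included all 14 neighbouring sites of the run before the start, so their share does not describe the whole window. The most negative difference was at 141075404, where the tumors stood at 29.0% and 43.0%, the MFP metastases at 39.8%, 46.2% and 32.7% and the TVI metastases at 27.3%, 19.5% and 16.7%. The other 4 of the 5 most negative differences were 141093307 (-15.4 points), 141090738 (-11.7), 141093635 (-10.8) and 141088201 (-8.92).

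By starting level, 134 of Lfng's sites (49.6%) were at or below 20% in the tumors, against 22.9% of all sites. Of these 134, 21 were at least 10 points higher in TVI than in MFP metastases (15.7%, against 9.89% of all sites at that tumor level) and 0 were lower by as much. The 21 included all 14 neighbouring sites of the run before the start, so most of that share came from a single place. Of the 23 sites between 20% and 80%, 10 were higher and 2 lower by 10 points or more (43.5% higher, against 41.8% of all sites at that level). Of the 113 sites at or above 80%, 1 was higher and 2 were lower.

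In the fit across all sites with limma, a linear model that shares information on the spread between sites, 36 of Lfng's 269 variable sites were called higher and 3 lower in TVI than in MFP metastases (Benjamini-Hochberg adjusted p below 0.05 over all sites). Over all sites, 10.4% were called higher and 6.53% lower. Against the tumors, 37 were called higher and 2 lower, with 11.4% and 5.24% across the table; after quantile normalization they were 27 and 5. Both comparisons chose the window and share the TVI metastases, so nothing is read from these counts. All 14 sites of the run were called in both, but they were picked by their TVI minus MFP difference, so nothing is read from this either.

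The 3 regions wholly inside the Lfng window, where a region is a set of at least 3 sites with neighbours at most 500 bp apart, differed in how far the groups parted. The region from 141080266 to 141083051 (72 sites, from -3.03 to -0.245 kb) averaged 58.1% and 58.8% in the tumors, 57.9%, 59.1% and 59.0% in the MFP metastases and 72.6%, 73.8% and 74.5% in the TVI metastases. The region from 141083574 to 141089280 (134 sites) averaged between 27.2% and 28.0% in all 8 samples. The region from 141090019 to 141094978 (54 sites) averaged 68.4% and 66.5% in the tumors, 69.5%, 68.8% and 69.7% in the MFP metastases and 72.6%, 72.3% and 72.5% in the TVI metastases. The first and the last separated the TVI metastases from the rest, by 15.0 and 3.11 points over the MFP metastases. The first holds the 14-site run, and the last holds the 3 sites from 141093952. Both runs were picked by their difference, so these region means do not describe an even change along the regions. The second kept the groups within 1 point of each other. Across the table, 55.7% of regions were called in that comparison (42.0% higher) and 59.3% between TVI metastases and tumors (49.6% higher); the first and the last Lfng region were called higher in both.

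Whether Lfng also differed between MFP metastases and primary tumors was tested, since that comparison did not choose its window; it shares its samples with the comparisons above, the tumors with one and the MFP metastases with the other. No site passed: limma called 0 of 269 sites, with the lowest adjusted p at 0.327 (at 141081372), against 0.0464% called across the table (0.0427% higher and 0.00368% lower). At an unadjusted p below 0.05, 24 sites passed (8.92%), against 8.66% across the table. None of the 3 regions was called, with a lowest adjusted p of 0.124, against 5.25% of regions across the table. In simulated data with the same group sizes, limma called 4% of 10-point and 32% of 20-point changes at sites. For regions it called 24% of 2-point and 74% of 4-point changes. These shares were not split by starting level, and recovery at the levels of Lfng's own sites and regions was not tested. The lack of calls therefore does not show that Lfng was unchanged between these groups. The window mean was higher by 0.521 points in the MFP metastases, whose 3 samples lay above both tumors, while the mean over all sites was higher by 0.731 points. It was 0.720 points without primary tumor replicate 1, 0.321 points without replicate 2 and -0.0139 points after quantile normalization, which gives all samples the same distribution of levels. The two-sided exact permutation test over samples gave p = 0.2, the smallest that 3 against 2 samples allow, and 0.4 after Benjamini-Hochberg adjustment over the window and its 3 regions.

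The largest of the 3 region differences between MFP metastases and tumors was that of the last, around the end of Lfng, 1.93 points ± 0.626 (SE; limma adjusted p = 0.124; exact permutation p = 0.2). It depended on the tumors used and was 2.89 points without primary tumor replicate 1 (limma adjusted p of 0.0480) and 0.968 points without replicate 2 (0.473). After quantile normalization it was 0.891 points (0.517). The 14-site run differed by -1.99 points, with overlapping samples. At the single sites with the largest positive differences, 141093307, 141080756 and 141092355, the MFP metastases were 17.4, 15.3 and 13.5 points above the tumors (limma adjusted p of 0.464, 0.345 and 0.461). The difference at 141092355 was 20.2 points without primary tumor replicate 1 and 6.72 points without replicate 2. At 141080756 the tumors stood at 42.4% and 47.3%, the MFP metastases at 56.1%, 58.3% and 66.1% and the TVI metastases at 85.5%, 92.7% and 88.8%. These were ordered without overlap from tumors to MFP to TVI metastases. The most negative differences were at 141081393 (-9.74 points), 141081372 (-9.07) and 141082912 (-7.26), with adjusted p of 0.464, 0.327 and 0.662 by limma. Of the 23 sites of intermediate level, 20 had a higher mean in the MFP metastases than in the tumors, against 65.1% of all sites at that level.

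One further region crossed the edge of the Lfng window. It ran from 141071040 to 141075404, and 10 of its 66 sites were members. Over the 66 sites the tumors averaged 55.2% and 55.4%, the MFP metastases 63.8%, 62.5% and 62.9%, and the TVI metastases 73.2%, 75.7% and 75.5%. The groups were ordered in steps without overlap, and between MFP metastases and tumors the region passed the test, by 7.75 points ± 0.839 (SE; limma adjusted p = 0.00360), also without any one sample (adjusted p of 0.00175 to 0.0303). Its 10 member sites, at -8.19 to -7.89 kb, did not carry that difference: they averaged 83.8% and 84.1% in the tumors, 85.1%, 83.1% and 83.5% in the MFP metastases and 88.2%, 85.0% and 84.2% in the TVI metastases. The region was not assigned to a gene.

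Notch2 differed little over its window. The 396 sites averaged 85.7% and 85.2% in the tumors and 85.2%, 85.4% and 85.7% in the MFP metastases. They averaged 85.3%, 84.4% and 84.7% in the TVI metastases. The samples of all groups overlapped, and the TVI metastases differed from the MFP metastases by -0.624 points (84.8% ± 0.499 against 85.4% ± 0.251; SD, n = 3 each), or -0.891 and -0.397 points without TVI metastasis replicate 1 and 2. Of its sites, 346 (87.4%) were at or above 80% in the tumors, against 60.9% of all sites, and 360 (90.9%) stayed within 5 points between TVI and MFP metastases, against 75.4% of all sites.

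Of the 19 Notch2 sites that differed by 10 points or more between TVI and MFP metastases, 10 lay in 3 runs of neighbouring sites and 9 outside them. The first run lay 29.1 kb after the placed start, in the region from 97846482 to 97848875 (33 sites), which averaged 43.1% and 41.0% in the tumors, 38.6%, 40.2% and 39.1% in the MFP metastases and 37.5%, 31.2% and 33.1% in the TVI metastases. Every metastasis was below both tumors, which is the pattern for which this window was chosen. Within it, 3 sites from 97846519 to 97846606 averaged 44.0% and 45.0% in the tumors, 35.6%, 47.2% and 39.2% in the MFP metastases and 18.6%, 6.0% and 10.2% in the TVI metastases. The TVI metastases lay below the rest without overlap, by 29.1 points under the MFP mean.

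The middle site of these, 97846567, had the most negative TVI minus MFP difference of the window: 68.8% and 69.0% in the tumors, 51.5% to 64.6% in the MFP metastases and 27.3%, 11.3% and 18% in the TVI metastases. A short distance on, 97846744 stood at 37.2% and 33.7%, at 24.4%, 25.5% and 22.6%, and at 14%, 0% and 8.47% in the same order of groups. At these 2 sites the groups were ordered without overlap from tumors to MFP to TVI metastases. The 11 sites that follow, 97846919 to 97847407, were at 8.24% ± 2.01 (SD, n = 2), 4.38% ± 0.186 and 4.38% ± 3.61 (SD, n = 3 each).

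The second run, 85.5 kb after the placed start, was set apart by the MFP metastases. Its 4 sites from 97902915 to 97902993 averaged 28.6% and 27.7% in the tumors, 50.1%, 51.3% and 46.1% in the MFP metastases and 30.3%, 27.8% and 29.1% in the TVI metastases. The MFP metastases lay above both other groups without overlap (49.1% ± 2.68 against 28.2% ± 0.571 and 29.1% ± 1.22), and the TVI metastases were within 1 point of the tumors. At 97902933 the tumors stood at 16.3% and 13.7%, the MFP metastases at 38.9%, 45.2% and 41.9% and the TVI metastases at 17.6%, 15.1% and 17.7%. At 97902928 they stood at 23.8% and 15.3%, at 52.9%, 54.8% and 44.0%, and at 31.5%, 33.7% and 29.7%.

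These were the only 2 of Notch2's 396 sites that limma called between MFP metastases and tumors, both higher in the metastases by 27.0 points ± 2.68 and 31.0 points ± 4.14 (SE), against 0.0464% of sites called across the table. The tumors and part of the metastases are the samples that chose this window, so the count is given as a description. Leaving out each of the 8 samples in turn, controls included, gave 0 calls, or 1 without TVI metastasis replicate 1. At an unadjusted p below 0.05, 29 sites passed (7.32%), against 8.66% across the table. The region that holds the 2 sites, 97901155 to 97906494 (95 sites), averaged 90.2% and 90.1% in the tumors, 91.5%, 91.0% and 91.3% in the MFP metastases and 90.7%, 90.6% and 90.6% in the TVI metastases. None of the 8 regions wholly inside the window was called, against 5.25% across the table. The next largest positive difference was at 97902915 in the same run (13.3 points), and the most negative were at 97951424, 97846760 and 97846744 (-15.5, -12.9 and -11.3 points).

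The third run, 134.1 kb after the placed start and near the gene end as placed, bordered an unmethylated stretch. The 14 sites from 97951671 to 97951934 averaged 2.65%, 1.88% and 1.71% in tumors, MFP and TVI metastases. The 3 sites before them, 97951516 to 97951571, averaged 79.0% and 76.1% in the tumors, 73.9%, 78.5% and 74.4% in the MFP metastases and 52.8%, 52.8% and 54.9% in the TVI metastases. The TVI metastases were lower without overlap, by 22.1 points under the MFP mean. At 97951571, the site nearest the unmethylated stretch, the group means were 63.5%, 59.6% and 33.4%.

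**Figure D3:**
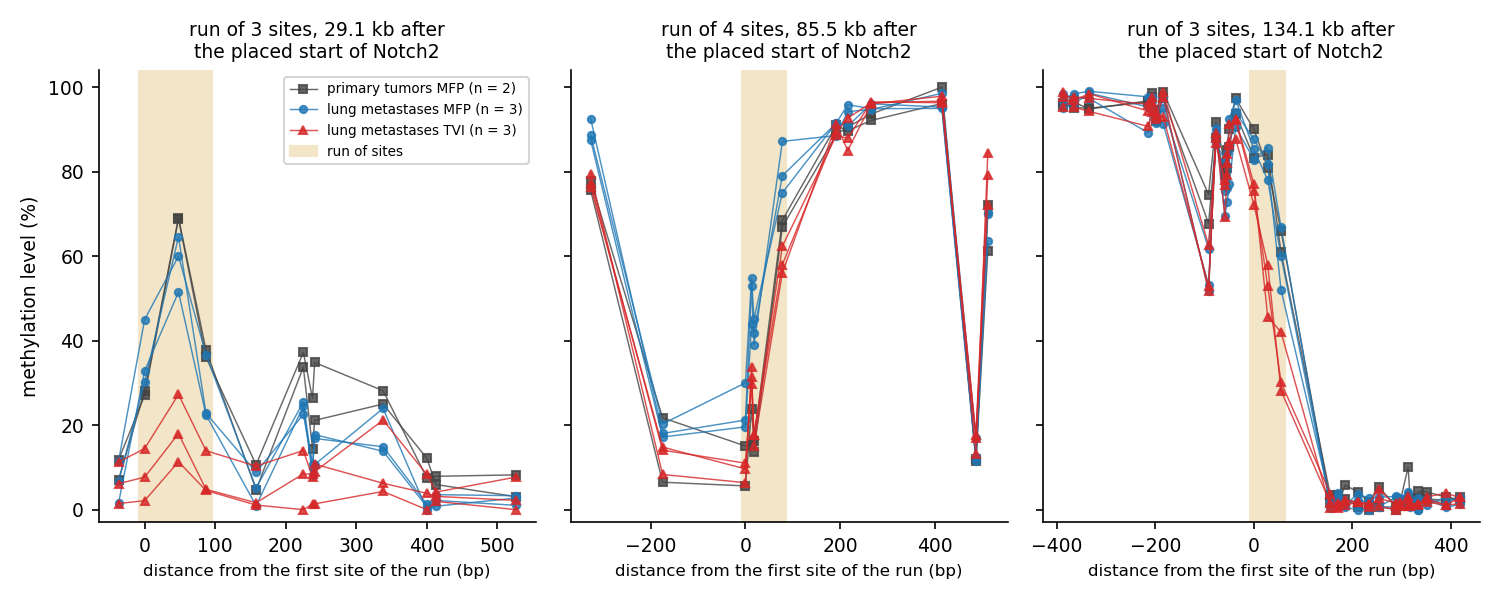
Methylation level in percent of each of the 8 samples around the 3 runs of differing sites in the Notch2 window, against distance in bp from the first site of each run (shaded). In the left and right panels the 3 TVI metastases are lowest in the shaded sites, and in the middle panel the 3 MFP metastases are highest while TVI metastases and tumors lie together.

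The positive TVI minus MFP differences at Notch2 were largest at 97845780 (23.1 points), 97845710 (14.3), 97903427 (10.6), 97845630 (7.71) and 97939329 (6.82). At 97845780, outside the runs, the tumors stood at 44.9% and 44.0%, the MFP metastases at 43.9%, 45.8% and 43.7% and the TVI metastases at 71.7%, 64.2% and 66.7%. This site lies less than 1 kb before 97846519, so sites that were higher and sites that were lower in TVI metastases stood close to each other. The 5 most negative differences were at 97846567, 97951544, 97846519, 97951571 and 97902933, at -39.8, -29.7, -27.9, -26.2 and -25.2 points. The most negative outside the runs, named after its value was seen, was at 97844292 (-24.7 points), with tumors at 37.3% and 39.8%, MFP metastases at 47.7%, 36.6% and 39.5% and TVI metastases at 24.8%, 8.27% and 16.5%, again without overlap.

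By count, 3 of Notch2's sites (0.758%) were at least 10 points higher and 16 (4.04%) at least 10 points lower in TVI than in MFP metastases, against 9.77% and 6.13% of all sites. Of its 18 sites of intermediate level in the tumors, 10 were lower by that much and 3 higher (55.6% lower, against 19.5% of all sites at that level). limma called 7 sites higher and 19 lower, where 10.4% and 6.53% of all sites were called. The higher calls were 2 without TVI metastasis replicate 1 or replicate 3, and 4 without TVI metastasis replicate 2 or any one MFP metastasis. Against the tumors it called 3 higher and 17 lower, where 11.4% and 5.24% were called over all sites; the lower calls were 9 without primary tumor replicate 1 and 27 after quantile normalization. These comparisons chose the window, so the counts are a description only. Of the 8 regions, that from 97846482 was called lower in both comparisons. Across the table, 13.8% of regions were called lower between TVI and MFP metastases and 9.67% between TVI metastases and tumors. The region from 97937826 (51 sites) was called higher between TVI metastases and tumors, as were 49.6% of regions across the table. It averaged 95.7% to 96.0% in the TVI metastases against 95.2% and 94.4% in the tumors. The other regions started at 97843615, 97850205, 97901155, 97907197, 97941020 and 97949293, and their TVI minus MFP differences ran from -0.643 to 0.300 points.

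**Figure D4:**
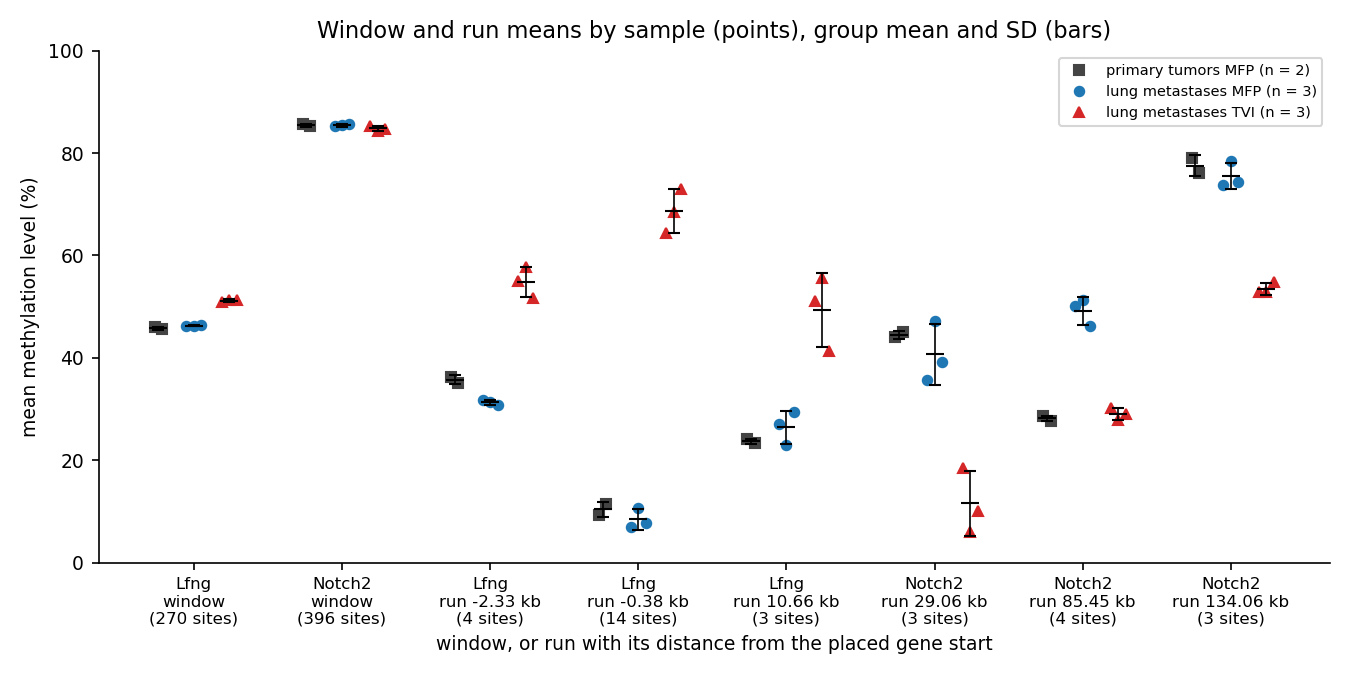
Mean methylation in percent of the 2 windows and of the 6 runs of differing sites; points are samples, horizontal marks and error bars the group mean and SD. The 14-site Lfng run has the widest gap, with the 3 TVI metastases at 64.5% to 73.0% and the other 5 samples at 6.97% to 11.5%, and the Notch2 run at 85.45 kb is the one where the MFP metastases stand apart.

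The share of sites where the TVI metastases parted from all other samples is given as a description only, since such differences chose the windows. All 3 TVI metastases lay above the other 5 samples at 46 of Lfng's sites (17.0%) and 12 of Notch2's (3.03%), against 14.4% of all sites. They lay below at 5 (1.85%) and 17 (4.29%), against 7.4%. Lfng's 46 sites included all 14 neighbouring sites of the run before its start, so their share does not describe the whole window. The MFP metastases lay above both tumors at 29 and 47 sites (10.7% and 11.9%, against 14.5%) and below both at 24 and 44 (8.89% and 11.1%, against 8.11%).

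Regions alike were sought by the root mean square difference of the 8 sample means, over 3055 of the regions outside both windows. A chromosome was left out of this search by plan. The regions most like the Lfng region from 141080266 were on chromosome 13 from 52743850 to 52744773 (1.44 points) and on chromosome 11 from 68262830 to 68265994 (1.48) and from 68251583 to 68257935 (1.52). Their means in TVI metastases were 72.6%, 75.1% and 71.4%. The regions most like the Notch2 region from 97846482 were on chromosome 8 from 4237059 to 4238581 (1.74 points), chromosome 2 from 127953759 to 127954557 (2.46) and chromosome 12 from 80231411 to 80233264 (2.71), with TVI means of 34.9%, 35.8% and 36.2%. Their tumor means were 39.8%, 38.5% and 38.1%, and their MFP means 39.2%, 39.3% and 38.5%. On chromosomes 2 and 12 the MFP mean was thus above the tumor mean. In the Notch2 region it was below, at 39.3% against 42.1%. No gene was assigned to these regions.

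The rest of the pathway could not be described. A list of 42 Notch pathway genes (receptors, ligands, fringe enzymes, proteases, the RBPJ complex, targets and regulators) had 33 members in the promoter table. With at least 80% of 5 or more promoter CpGs on listed sites, only Notch4 was placed, by 4 of 5 CpGs at a shift of over 2 Mb. With at least 7 CpGs matched, 0 of the 33 were placed.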

How the data were processed

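DNA was isolated with a ZR-Duet miniprep and bisulfite-converted (EZ-DNA Methylation Gold) before sequencing, per the labels' protocols. Trimmomatic, Bismark and mm10 are named, without version, per the submitters' processing notes. Site selection and any coverage filter were not given in the sources used here. Beta values, deposited by the authors, give the fraction of methylated calls, for 136069 sites in 8 samples with none missing, and no pair of samples was identical. Fractions of 135914 sites with variation, and means of 3083 regions, entered limma 3.58.1 (R 4.3.3) fits (trend on, 1 mean per group, all 8 samples, two-sided, Benjamini-Hochberg over all, threshold 0.05). The fit was tested on simulated data. Members and gene lists were chosen with earlier results of these data known. Named were, per window, the 5 most positive and 5 most negative TVI minus MFP differences, the 3 most positive and 3 most negative MFP minus tumor differences, every region, and the 3 most alike regions. Runs of sites, and other genes' shifts for Lfng and Notch2, were added after seeing the data. The rule for placing genes (5 or more CpGs, 80% matched) put 490 of 725 genes over 8 Mb from their GRCm38 position, so at least 7 matched CpGs were required (157 genes, 0 that far).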

Additional observations from a re-analysis of the deposited data

Results flagged for a closer look

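At 4 Lfng items the TVI metastases lay on one side of both tumors and the MFP metastases on the other; the difference between the 2 groups' effects is TVI minus MFP, a comparison that chose the windows, so it is given here as values only. The TVI minus MFP differences there were 23.5 points for the run of 4 sites from 141080970, 79.7 points at 141083017, 21.9 points at 141081372 and 67.4 points at 141082912. At each of the 4 the TVI metastases were above and the MFP metastases below the tumors, the latter by -4.39 points or more in size on average. At Notch2 the same held for 97845710, with a TVI minus MFP difference of 14.3 points, and in the opposite direction for 97846519, at -27.9 points, where the MFP metastases were above and the TVI metastases below both tumors.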

How the results depend on the processing

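The settings tried were quantile normalization, the logit scale, no variance trend, only the compared groups, a replicate block and leaving out each sample. Of 108 alternative counts of calls, 93 stayed within 1.5 times their value or stayed at 0. Those at 0 include every setting for Lfng sites between MFP metastases and tumors and most settings for regions in that comparison. With neighbours joined at 1000 bp, no Lfng region was left to test. For named sites, 373 of 416 alternatives kept direction and side of the threshold, and no named site turned direction. For the 2 Notch2 sites called between MFP metastases and tumors, the count was 1 after quantile normalization and 0 on the logit scale, with only the compared groups, and with a replicate block. Leaving out samples gave 0 to 1 there, 0 to 1 for Lfng regions in the same comparison (1 without primary tumor replicate 1) and 12 to 25 for Notch2 sites between TVI metastases and tumors (12 without primary tumor replicate 1, against 20). With neighbours joined at 1000 bp, 1 Notch2 region was called between MFP metastases and tumors. The cause of these changes was not tested. The deviations of same-numbered samples had correlations of -0.0037 to 0.0172 (highest for primary tumor 1 with MFP metastasis 1). Those of differently numbered samples had correlations of -0.0172 to 0.00731. Samples of the same animal need not deviate together, so these values cannot decide whether the numbers pair samples. With the block, Lfng had 37 sites called between TVI and MFP metastases, against 39.

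The Lfng window difference between TVI and MFP metastases (4.86 points) was 4.05 after quantile normalization, 52.7 as a median over sites (49.3% of the sites were at or below 20% in the MFP metastases and 43.0% in the TVI metastases, so the median sits between unmethylated and methylated sites) and 1.83 without the 14-site run, a choice made after seeing the data. Between MFP metastases and tumors (0.521) it was -0.0139 after quantile normalization and 2.13 as a median. For Notch2, TVI minus MFP (-0.624) was -1.23 after quantile normalization and 0.259 as a median, and MFP minus tumors (-0.0244) was -0.529 after quantile normalization. The differences of Lfng regions between MFP metastases and tumors that were near 0 turned sign: from 141080266 to -1.07 after quantile normalization, -0.0848 with the replicate block and -0.150 to 0.596 over left-out samples (lowest without primary tumor replicate 1), and from 141083574 to -0.861 after quantile normalization and -0.0683 to 0.385 over left-out samples (lowest without primary tumor replicate 2). Requiring 7 matched CpGs placed 157 genes in place of 725, since fewer promoters can reach it. The Notch pathway list within 500 bp was not run because no member was placed reliably. Depth is unknown, so no detection limit could be set for single sites.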
